A study of Canis lupus familiaris with 109 samples.

Results

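Of the 1812277 cytosine positions measured in 7 dog blood libraries of the repeat capture table, 207082 (11.43%) lay more than 5000 bp from every position of the study's main table on the same chromosome. These are called distal positions below. They were compared with the 939250 positions (51.83%) that lay within 200 bp of a main-table position, called nearby positions. The remaining 665945 positions (36.75%) lay between these limits. Membership was set by distance alone, with no methylation value used.

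The study captured bisulfite-treated DNA from whole blood of domestic dogs with the Roche SeqCap Epi protocol, and its labels list 109 samples. For the repeat table they name 6 repeat captures, 1 per dog, and 1 first capture of a dog that also has a repeat, so 7 samples came from 6 dogs. The dogs with a repeat capture were 0.384 to 15.49 years old, with a median of 5.51 years, and were of both sexes. No breed, treatment or disease is given for these samples. The 7 library codes in the table match no label, so no library was tied to a dog, and values are given by library or as a lowest, median and highest library without a test. Blood is a mixture of cell types, the table holds no marker of any of them, and the labelled tissue was therefore not checked. The deposited values are methylation fractions without read counts, so the depth behind each value is unknown and no interval is given.

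In mammals, DNA methylation is found mainly at cytosines followed by guanine (CpG). Most CpGs lie far apart and are methylated, whereas CpG islands, which are dense clusters often found at gene promoters, are mostly unmethylated. Bisulfite converts unmethylated cytosine so that it is read as thymine, and the fraction of reads that still show cytosine is the methylation fraction. Which of the positions below were capture targets is not given in the sources used here. Each CpG has a cytosine on either strand, and 93.17% of distal positions were listed in such pairs, against 98.26% of nearby positions. Regions are named by chromosome and first listed coordinate on CanFam3.1, the build given in the submitters' processing notes. No gene annotation on that build was used here, and whether coordinates count from 0 or from 1 was not settled.

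Distal positions occurred in many small groups scattered over all 38 autosomes. Joined across gaps of up to 1000 bp, they formed 9550 clusters with a median of 12 positions and 113 bp. The largest cluster held 275 positions. The median distance to the main table was 14728 bp, with quartiles at 8417 and 29511.5 bp. The position farthest away, on chromosome 31 at 18287249, lay 1372083 bp from it. Distal positions were about as crowded as nearby ones. Local density was counted as the positions in the table at most 100 bp away in either direction, itself included. Its median was 24 in both sets, with quartiles of 15 and 37 in distal and 12 and 38 in nearby positions.

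Distal positions were more often methylated than nearby ones. The level of a position was taken as the median over its non-empty libraries. Levels under 0.1 are termed unmethylated and levels over 0.8 methylated. Of the distal positions, 98411 (47.52%) were unmethylated and 83913 (40.52%) methylated. The nearby positions were unmethylated in 60.75% and methylated in 26.07%. A middle level of 0.3 to 0.7 was found at 5.61% of distal and 5.619% of nearby positions. The level was listed as 1, equal to 6 decimals, at 24.98% of distal and 9.577% of nearby positions, and as 0 at 46.53% and 56.53%. The fractions carry 2 decimals, so that a listed 0 can hold small fractions above 0. Of 1390589 filled cells of distal positions none held 0.01, 338 held 0.02, 21598 held 0.66 and 75 held 0.67. The value 0.01 was absent from nearby positions too. Of their 6495674 filled cells, 44637 held 0.02, 47600 held 0.66 and 2567 held 0.67. A value of 1 at a distal position whose other libraries had a median under 0.05 occurred in 181 to 414 cells per library, or 0.1902% to 0.4999% of such cells. At nearby positions the share was 0.1353% to 0.8416%. With these values of 1 set to 0.01 in both sets, the differences in library means given next were 0.135 to 0.153.

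The higher level of distal positions was seen within every library. Their mean fraction was 0.445 in CHYB6_CF_10_S14, 0.456 in CHYB6_CF_1_S13, 0.4455 in CHYB6_CF_5_S16, 0.4405 in CHYB6_CF_6_S17, 0.468 in CHYB6_CF_7_S18, 0.446 in CHYB6_CF_8_S15 and 0.4485 in SCE_CF_Pilot_1_S1. The 7 values span a narrow band, with CHYB6_CF_7_S18 the highest. Nearby positions had means of 0.306 to 0.314 in the same libraries, so the ranges of the sets did not overlap. The difference within a library was 0.133 to 0.154, with a median of 0.139, and distal positions were higher in 7 of 7 libraries. It was smaller under other limits, with a median of 0.0709 for positions over 20000 bp away and of 0.0676 against the positions the main table itself lists. With nearby positions weighted to the local density of the distal ones, the difference was 0.153 to 0.1715. The highest distal means, in CHYB6_CF_7_S18, CHYB6_CF_1_S13 and SCE_CF_Pilot_1_S1, belonged to the libraries with most empty distal cells (9.4%, 7.25% and 5.10%). Library means thus cover partly different positions, and the difference was not recomputed at positions filled in every library.

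The gap between the sets depended on local density. Among isolated positions, with 1 to 3 listed positions within 100 bp, distal and nearby positions were alike in class. They were unmethylated in 8.57% and 6.74%, and methylated in 58.8% and 60.8%. The mean fraction there was lower in distal positions in 7 of 7 libraries, with differences of -0.0117 to -0.004085. At a density of 4 to 7 the difference was 0.00273 to 0.0118 in the other direction. From a density of 8 upward the sets moved apart.

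At 8 to 15 listed positions, 20.02% of 35841 distal and 27.1% of 172357 nearby positions were unmethylated. The widest separation came at 16 to 31, where 40.95% of 81329 distal and 65.5% of 296548 nearby positions were unmethylated. Distal positions were methylated in 47.9% and nearby positions in 22.6% at this density. Their library means were 0.507 to 0.54 in distal and 0.264 to 0.273 in nearby positions. The ranges did not overlap, and the difference within a library was 0.239 to 0.267. At 32 or more, 76.4% of 73245 distal and 90.2% of 351811 nearby positions were unmethylated, and 17.9% and 5.30% were methylated.

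**Figure D1:**
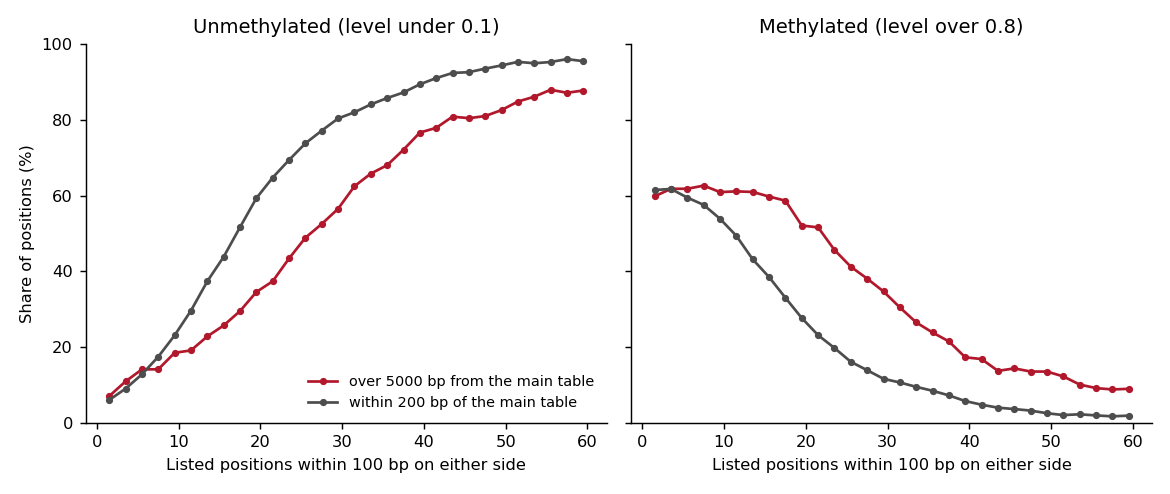
Share of unmethylated (left) and methylated (right) positions, in percent, against local density (positions up to 100 bp away), in steps of 2, for positions over 5000 bp from the main table (red) and within 200 bp of it (grey). Both sets start near 60% methylated, and the curve of the distal positions falls later: from a density of 19 to the next step 52.1% were methylated, against 27.7% of nearby positions.

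Density here counts positions the table lists, not all CpGs of the genome, so a position at the edge of a captured stretch has a lower count. Among positions with a value in all 7 libraries, the pattern by density was the same in direction from 8 listed positions up. At 16 to 31, 35.4% of 64432 complete distal positions and 64.4% of 274603 complete nearby positions were unmethylated.

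The unmethylated share did not change steadily with distance from the main table. It was 51.9% at main-table positions themselves, 64.3% at 1 to 200 bp and 75.04% at 201 to 1000 bp. From there it fell to 41.3% in the band of 6001 to 10000 bp. It was higher again in the band of 20001 to 50000 bp (53.3%) and in that of 50001 to 100000 bp (59.1%). Just outside and just inside the limit of 5000 bp, it was 50.7% of 28724 positions at 4001 to 5000 bp and 43.4% of 18575 at 5001 to 6000 bp. Within a density of 16 to 31 the order was similar, with values of 69.75%, 34.75% and 53.4% in the bands of 201 to 1000, 6001 to 10000 and 50001 to 100000 bp. The most remote 7003 positions, over 100000 bp away, were unmethylated in 58.3%. The methylated share was 43.3% to 46.1% in the bands between 5001 and 20000 bp and 28.3% to 35.6% farther out.

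By chromosome, distal positions were less often unmethylated than nearby positions on 33 of 38 autosomes. The exceptions were chromosomes 14, 23, 29, 32 and 38. At a density of 16 to 31 the distal share was the lower on 36 of 38. Chromosome 32 had the highest unmethylated share, at 83.01% of 1566 distal positions, against 76.5% of nearby ones. Chromosome 29 followed with 70.6% of 2526, against 57.45% nearby, the largest difference in this direction at 13.2 percentage points. On chromosome 8 the share was lowest, at 34.3% of 7956 distal positions, against 63.98% nearby. Chromosomes 18 (35.2%) and 25 (36.2%) were next to it, and chromosome 20, with the most distal positions (15417), had 39.35%. On chromosome 8, 2082 of the distal positions lay in a single 1 Mb window, and 18.2% of these were unmethylated.

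**Figure D2:**
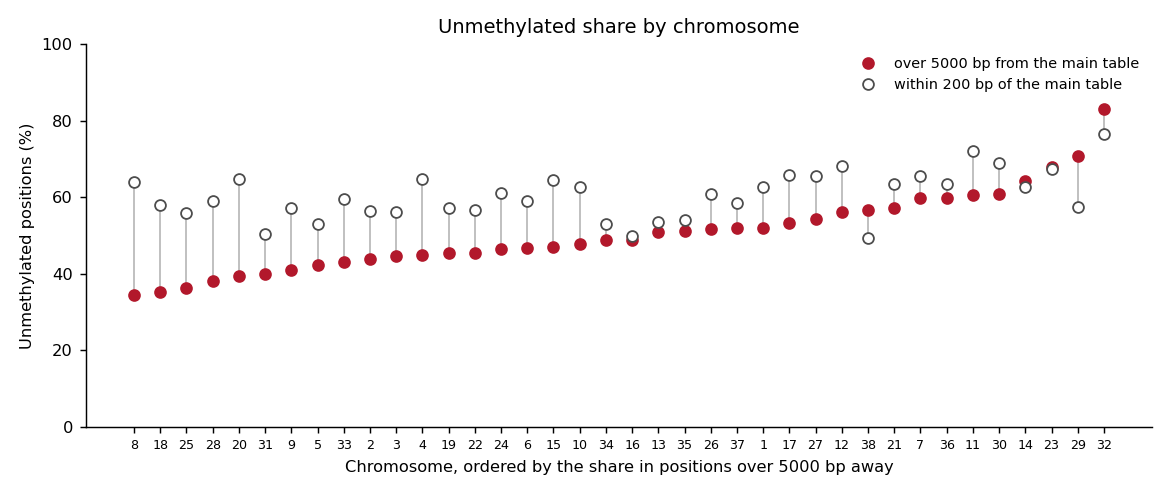
Unmethylated positions, in percent, on each of 38 autosomes for positions over 5000 bp from the main table (filled red) and within 200 bp of it (open), with a line joining the pair. Chromosomes are ordered by the red value, from 34.3% on chromosome 8 to 83.01% on chromosome 32, and the open circle lies above the red point on 33 of them.

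Chromosomes with more crowded distal positions had more unmethylated ones. Across the 38 autosomes the median density and the unmethylated share of distal positions had a Pearson r of 0.725 and a Spearman rho of 0.641. The points share the same 7 libraries and differ in the number of positions. The unmethylated shares of distal and nearby positions had an r of 0.513 over the same chromosomes. Density differences covered only part of the range: if each density bin had its share over all distal positions, chromosome 8 would stand at 45.5% and chromosome 32 at 55.05%.

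Distal positions made up a median of 11.16% of the listed positions of a chromosome. Chromosome 31 had the largest proportion, with 28.2% of its positions distal, and they were mostly methylated (50.65%, against 39.97% unmethylated). Chromosome 38 followed with 23.2%, and there 56.5% were unmethylated. Chromosome 12 had the smallest proportion, 6.285%.

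Pooled over the autosomes, distal positions were more frequent and more methylated towards the end of a chromosome. Dog autosomes are acrocentric, with the centromere close to an end, and the end meant here is the last listed position. Within 1 Mb of it, 16818 of 57604 positions (29.2%) were distal, against 9.03% at 10 to 30 Mb and 10.53% farther away. The proportion in the last 1 Mb was the higher on 30 of 38 chromosomes. Some of these proportions rest on few listed positions, such as 6 on chromosome 5 and 26 on chromosome 8. The first 1 Mb was not examined in this way, and levels in the last 1 Mb were not compared by chromosome. Chromosomes 20, 28 and 24 gave the most distal positions there, with 4146, 2234 and 1795. Of the distal positions in the last 1 Mb 57.55% were methylated and 27.8% unmethylated, while at 10 to 30 Mb 33.55% were methylated and 54.2% unmethylated. Over 30 Mb away, where 88371 distal positions lay, 38.5% were methylated and 50.1% unmethylated.

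Nearby positions changed along the chromosome too. They were methylated in 53.3% in the last 1 Mb and in 22.7% at 10 to 30 Mb. At a density of 16 to 31 in the last 1 Mb, 20.6% of 8416 distal and 23.6% of nearby positions were unmethylated, a smaller gap than the 51.8% and 70.6% at 10 to 30 Mb. Crowded positions differed more: at 32 or more, 42.8% of 5539 distal positions in the last 1 Mb were methylated, against 25.8% of 6000 nearby ones. The last 3 Mb held 16.75% of distal and 5.593% of nearby positions. Leaving them out took the difference between library means from a median of 0.139 to 0.119.

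**Figure D3:**
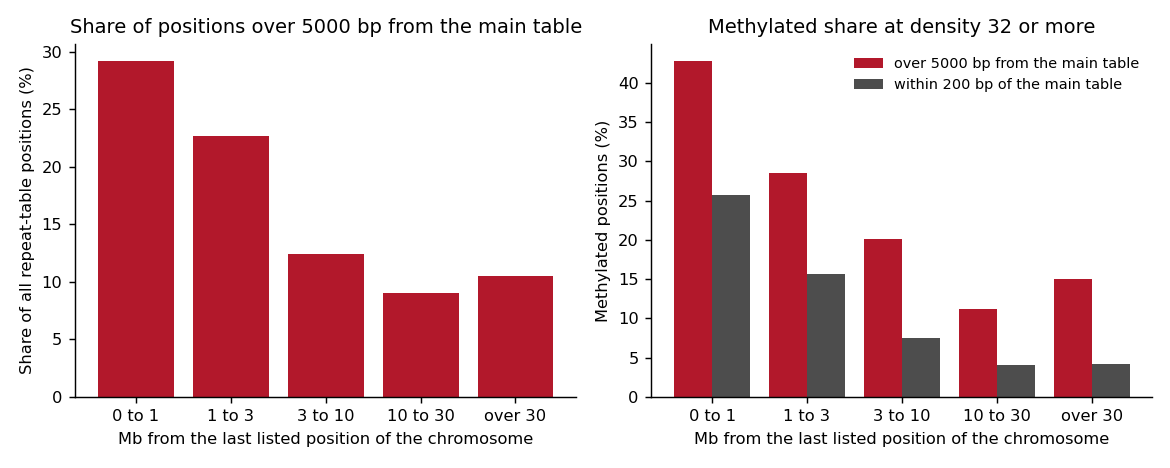
Positions grouped by distance, in Mb, from the last listed position of their chromosome. Left, the share of repeat-table positions that lie over 5000 bp from the main table, in percent, which is 29.2% in the last 1 Mb. Right, the share methylated among positions with 32 or more listed positions within 100 bp, for distal (red) and nearby (grey) positions, at 42.8% and 25.8% in the last 1 Mb.

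A few 1 Mb windows held many distal positions. Of 1823 windows with any, the median held 59, and the fullest 10% of windows held 44.4% of all distal positions. The fullest, on chromosome 20 from 57000000 to 57999999, had 3970, of which 55.2% were methylated, against 40.5% of 2456 nearby positions there. A window on chromosome 8 from 72000000 to 72999999 had 2082, which was 57.9% of its listed positions. Of these 67.6% were methylated, less than the 82.6% of 610 nearby positions. Windows on chromosomes 28 from 40000000 and 13 from 37000000 also had fewer methylated distal (59.2% and 50.2%) than nearby positions (77.9% and 54.6%). On chromosome 6 from 39000000 to 39999999, inside the chromosome at 37.5 Mb from its last position, 82.5% of 1482 distal positions were methylated, against 51.9% of the nearby positions there. The first window of chromosome 9 (70.3% against 40.5%) and those of chromosome 20 from 56000000 (47.8% against 36.7%) and 55000000 (42.04% against 37.9%) had the same direction.

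Distal positions that followed each other at no more than 100 bp were joined into runs, and the 6617 runs with 10 or more positions held 90.16% of them. A run's level in a library is the mean of its fractions. The median over libraries was under 0.1 in 2347 runs (35.5%) and over 0.8 in 3239 (48.95%). Of 23759 nearby runs 46.4% were under 0.1 and 35.2% over 0.8. Unmethylated distal runs were larger than methylated ones, with medians of 34 and 18 positions, at 143 and 130 bp. Nearby runs had the same direction, with 40 and 14 positions, at 215 and 124 bp. Among 1415 distal runs with a median density of 32 or more, 263 (18.6%) were methylated, against 5.80% of 5412 such nearby runs.

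All 5 of the largest distal runs were unmethylated at every position. The first, on chromosome 38 from 14823159 to 14823967, held 229 positions and lay 68278 bp from the main table. Its level was 0.00175 in the lowest and 0.00741 in the highest library, with a median of 0.00316. Runs on chromosomes 24 (199 positions from 16736976), 7 (191 from 78092505), 21 (186 from 21677100) and 15 (183 from 16313553) had medians of 0.00538, 0.00547, 0.00281 and 0.00503. Their highest library reached 0.0132.

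The methylated runs with most positions were smaller than these. The methylated run with most positions, on chromosome 4 from 87357718 to 87358262, held 145 positions in 545 bp and was filled in every cell. Its level was 0.943 in CHYB6_CF_10_S14, 0.967 in CHYB6_CF_1_S13, 0.968 in CHYB6_CF_5_S16, 0.942 in CHYB6_CF_6_S17, 0.974 in CHYB6_CF_7_S18, 0.9499 in CHYB6_CF_8_S15 and 0.942 in SCE_CF_Pilot_1_S1. All 7 libraries were high, and 100% of its positions were methylated. A run on chromosome 20 from 57920416 to 57920981 held 141 positions at a median of 0.948. Both runs of 140 positions on chromosome 1, from 30587647 to 30588344 and from 121781383 to 121782050, had medians of 0.942 and 0.898, and a run of 140 on chromosome 14 from 56249844 to 56250500 had 0.932. The range over libraries was at most 0.0584 in these 5 runs.

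Some runs near a level of 0.5 were borders between a methylated and an unmethylated stretch. Of 205 distal runs at 0.4 to 0.6, 17 held at least 5 positions of each class, as did 59 of 806 such nearby runs. In 27 of the 205 (0.408% of all distal runs) at least 80% of positions were at 0.3 to 0.7, and in 169 nearby runs (0.711%). The 5 with the smallest range over libraries each held methylated and unmethylated positions. The run on chromosome 6 from 6784093 to 6784469 had 92 positions and levels of 0.501 to 0.562 in the 7 libraries. Its 40 methylated positions all lay 0 to 147 bp from its start and its 26 unmethylated positions 243 to 376 bp from it. Up to the last methylated position the library means were 0.894 to 0.954, and from the first unmethylated position on they were 0.0274 to 0.0809.

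The run on chromosome 5 from 33825555 had 27 positions, and its level changed between 41 and 94 bp from the start. Library means were 0.903 to 0.992 on the first side and 0.00786 to 0.0964 on the second. On chromosome 9 from 383057, a run of 52 positions had its last methylated position at 233 bp and its first unmethylated one at 283 bp. Its first side was less even, with library means of 0.718 to 0.784, and held positions at middle levels and lower, down to a median of 0.12. Its second side was at 0.00579 to 0.0553. On chromosome 20 from 46111344, a run of 14 positions (median 0.461) began methylated and was at 0 to 0.1 from 84 to 108 bp. Its positions at 119 and 120 bp were at 0.45 and 0.35, and the last ones at 0. In the run on chromosome 5 from 8109105 (10 positions, median 0.433) the levels went from 0.94 and 1 at the start to 0 and 0.2 at the end.

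**Figure D4:**
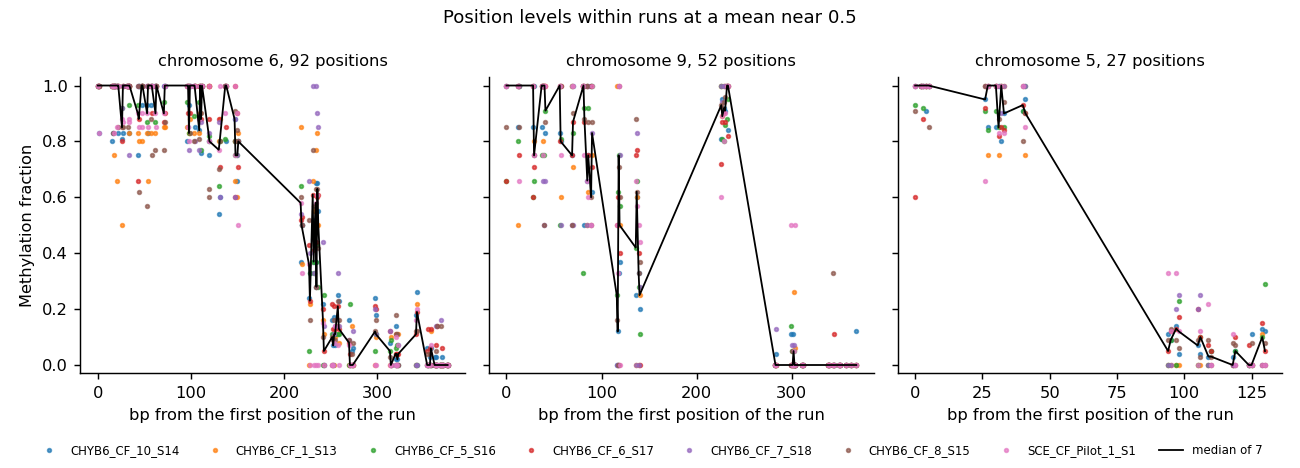
Methylation fraction of each position in 7 libraries (coloured points) and their median (black line) against the distance in bp from the first position, in 3 distal runs with a mean near 0.5. In the runs on chromosomes 6 and 5 the fractions are high on the left and low on the right, with the change between 147 and 243 bp and between 41 and 94 bp. The run on chromosome 9 also dips, to a median as low as 0.12, before its last methylated positions.

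In all, 36 distal runs (0.544%) held at least 5 positions of each class, and 134 nearby runs (0.564%). The class changed once along the run in 30 of the 36 and in 112 of the 134. The change took place within a median of 49 bp in distal runs (2 to 145 bp) and 77 bp in nearby runs (17 to 368 bp). Of the 27 runs with mostly middle positions, 16 had at least 90% of cells filled in every library, a choice made with the values in view. The steadiest of them, on chromosome 13 from 47255097 to 47255229, had 10 positions and libraries of 0.388 to 0.487. A run on chromosome 5 from 26642975 to 26643110 had 11 positions and libraries of 0.364 to 0.493. The median range of the 16 was 0.293, and 0.2335 in 149 such nearby runs.

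Neighbouring distal positions were mostly of the same class. Among position pairs that were each methylated or unmethylated, 0.207% at 2 to 10 bp were of opposite class, against 0.0552% in nearby positions. The value rose with distance, to 0.588% at 101 to 200 bp and 6.16% at 501 to 1000 bp, against 0.304% and 5.475% nearby. For pairs drawn without regard to distance it would be 49.7% and 42.02%. In 2896 methylated distal runs (at least 80% of positions methylated) 56 of 31816 CpGs (0.176%) were unmethylated on both strands. In 7472 nearby runs 56 of 69876 were (0.0801%). Fractions were under 0.1 in every library at 9 of the 56 distal and 7 of the 56 nearby CpGs.

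Some distal runs differed widely between libraries. By range over libraries the first 5 included runs that were poorly filled. The run on chromosome 7 from 41741311 had no value in 1 library, and a run on chromosome 37 from 1986909 had 6.67% of its positions filled in 1 library. On chromosome 21 from 40893416 the lowest filling was 52.3% and on chromosome 15 from 6126294 it was 70.6%. These 4 runs had ranges of 0.904 to 1. The runs on chromosomes 7 and 15, each with a range of 1, held no CpG listed on both strands. The run on chromosome 31 from 35896640 to 35896794, with 30 positions, was filled to at least 93.3%.

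This chromosome 31 run had levels of 0.882 in CHYB6_CF_10_S14, 0.169 in CHYB6_CF_1_S13, 0.0329 in CHYB6_CF_5_S16, 0.820 in CHYB6_CF_6_S17, 0.0283 in CHYB6_CF_7_S18, 0.941 in CHYB6_CF_8_S15 and 0.0457 in SCE_CF_Pilot_1_S1. Its 3 high and 4 low libraries were separated by a gap with no value between 0.169 and 0.820. Among runs filled to at least 90% in every library, a limit set with the values in view, the next widest were on chromosomes 18, 34, 30 and 11. The chromosome 18 run from 25297816 to 25297963 had 40 positions, all filled, and libraries from 0.0573 to 0.906 with a median of 0.408. Of its positions 87.5% were at middle levels, and its 7 libraries were spread out with no clear break. The run on chromosome 34 from 11776663 ranged from 0.110 to 0.793, that on chromosome 30 from 35787380 from 0.00667 to 0.683, and that on chromosome 11 from 52341487 from 0 to 0.665.

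**Figure D5:**
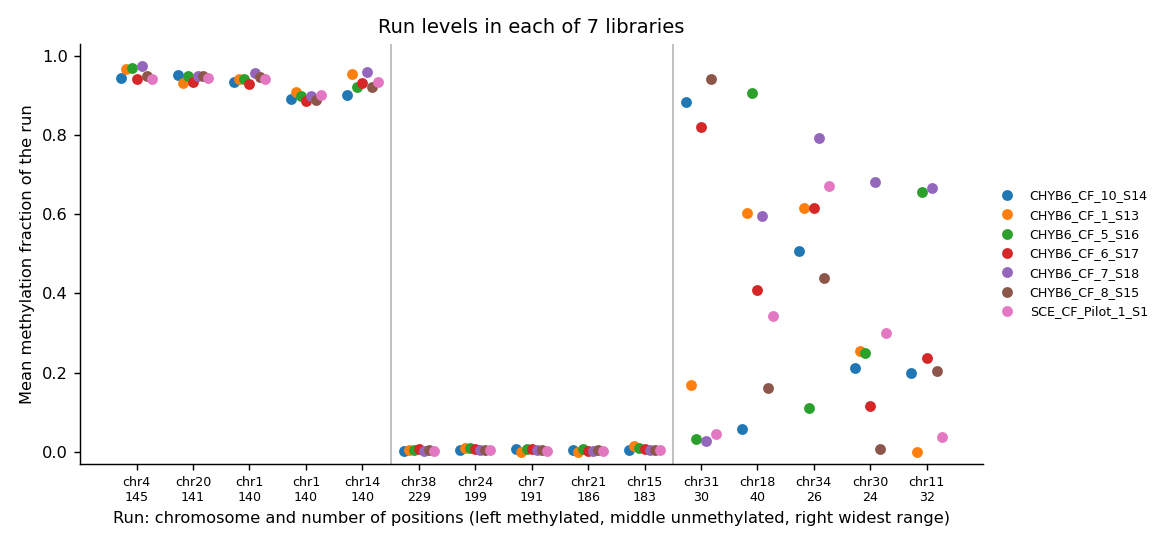
Mean methylation fraction of 15 distal runs in each of 7 libraries (coloured points): the 5 methylated and the 5 unmethylated runs with most positions, and the 5 with the widest range among runs filled to at least 90%. The first 10 runs lie close together near 0.9 or 0, while the chromosome 31 run has 3 libraries at 0.820 or above and 4 at 0.169 or below.

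Over well-filled runs, and at positions with a level of 0.2 to 0.8, the libraries agreed less in distal regions. A range over 0.3 was found in 122 of 3740 distal runs (3.26%) filled to at least 90% in every library, and in 410 of 19688 such nearby runs (2.08%). At single positions with a level of 0.2 to 0.8 and no empty cell, the median range was 0.5 in 18417 distal and 0.37 in 91857 nearby positions. Over these positions, pairs of libraries had r of 0.228 to 0.508 in distal and 0.433 to 0.655 in nearby positions. Fractions of the 2 strands of a CpG were also less alike: at levels of 0.2 to 0.8 their median absolute difference was 0.14 to 0.25 in distal and 0.11 to 0.17 in nearby CpGs. Identical fractions in all 7 libraries went the other way. Among complete unmethylated positions they occurred at 64.7% of distal and 52.5% of nearby ones, and among methylated positions at 6.27% and 2.85%. The number of reads behind these fractions is unknown, and its part in the spread was not tested.

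The codes CHYB6_CF_1_S13 and SCE_CF_Pilot_1_S1 share the number 1, and they were the closest pair over distal runs that differed widely between libraries. Over the 122 well-filled runs with a range over 0.3, their median absolute difference was 0.0781, against 0.089 to 0.186 in the 20 other pairs. Their r over these runs was 0.8185, against 0.517 to 0.784. Over distal positions of all levels it was 0.935, within the 0.907 to 0.952 of the other pairs. At nearby positions of all levels it was 0.961, against 0.942 to 0.957. At complete distal positions with a level of 0.2 to 0.8, their r of 0.465 was the highest of either library with any other. Pairs among the remaining libraries reached 0.508. Whether the pair comes from a single dog is not stated by the codes.

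Distal positions were less completely measured. Of their cells 4.069% were empty, against 1.203% in nearby positions, and 80.07% against 93.6% of positions had a value in every library. The share of empty cells ran from 1.18% in CHYB6_CF_10_S14 to 9.4% in CHYB6_CF_7_S18 at distal positions. CHYB6_CF_1_S13 (7.25%) and SCE_CF_Pilot_1_S1 (5.10%) were also high, and the other 4 libraries lay at 2.08% or below. Unmethylated distal positions had more empty cells (5.76%) than methylated ones (2.43%), and in nearby positions these values were 1.44% and 0.842%. Among complete positions the unmethylated share of distal positions was 42.99% in place of 47.52%.

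Positions listed on a single strand were more common among distal positions, at 13747 (6.64%) against 14755 (1.57%) of nearby ones. Of these distal positions 71.6% were unmethylated, compared with 45.8% of the other distal positions. They also had 10.7% of cells empty, against 3.599% of the others. In nearby positions 66.01% of single-strand and 60.7% of other positions were unmethylated, with 2.92% and 1.175% of cells empty.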

How the data were processed

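Fractions of methylated reads per cytosine position and library were deposited by the authors, with no counts or coverage. Per the submitters' processing notes, Trim Galore, Bismark 0.14.3 and Bowtie2 2.1.0 were used with the CanFam3.1 build, without the role of each. The repeat table (7 libraries) supplied all values, and only the positions of the main table (304191) were used. No value was imputed, and empty cells were left out of every mean, median and share.

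The distance of each position to the nearest main-table position, its local density and runs were computed with Python 3.11.15 and NumPy 2.4.6, and the figures with Matplotlib 3.10.9. The steps were tested on simulated data with known distances, densities and runs. All 7 libraries match no label and were left unassigned, so no group, test or p-value was formed. Positions of a library and neighbouring positions are not replicates.

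Named runs are the 5 with most positions, the 5 with most positions under 0.1 and over 0.8, the 5 with the smallest range over libraries at 0.4 to 0.6, and the 5 with the largest range. The positions and limits described were chosen with earlier results of these data known. Alternatives changed the distance limit, the level, the density window, the libraries, the filling and the class limits.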

Additional observations from a re-analysis of the deposited data

Results flagged for a closer look

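In the named runs and the library means, 30 sets of library values were examined for a single library far from the others, and 1 stood out. Chance gives about 1 in 20 for sets not chosen by their spread, but this run was named for its large range, so that rate does not apply to it. In the run on chromosome 37 from 1986909 to 1987053, CHYB6_CF_1_S13 had a level of 0, and its gap to the next library was 0.645 of the whole range. Only 6.67% of the 15 positions had a value in that library. The other libraries lay between 0.583 and 0.904, with SCE_CF_Pilot_1_S1 at 0.583 filled to 40%. The part of the missing cells in this value was not tested.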

How the results depend on the processing

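Of 68 recomputed values, 35 stayed within 1 SD of the 7 libraries (for the number of runs, less than 1.5 times) and 33 moved by more. The 35 include settings that could not move a value, such as a limit to autosomes, which every position already met. Only a difference in library means could change sign, and none did. The unmethylated share of distal positions (47.52%) was 50.42% with a limit of 2000 bp, 55.09% with 20000 bp, 45.9% from means, 49.03% with 1 strand per CpG, 42.99% at complete positions and 49.06% with a boundary of 0.2. The methylated share (40.52%) was 37.83%, 34.03%, 39.36%, 39.21% and 44.31% under the first 5 of these and 43.96% with a boundary of 0.7. The nearby unmethylated share (60.75%) was 51.88% at main-table positions themselves, 58.92% from means, 59.96% at complete positions and 63.68% with a boundary of 0.2. The difference in library means (0.1388) was 0.112 at 2000 bp, 0.07088 at 20000 bp, 0.06763 against main-table positions themselves and 0.1269 with 1 strand. Dense distal positions (76.39% unmethylated) gave 77.24% at 2000 bp, 81.31% at 20000 bp, 82.08% with a 250 bp window and 66.64% with 50 bp, and sparse ones (58.81% methylated) gave 47.59% with 50 bp. The counts that define dense and sparse were scaled in proportion to the window, so these are different sets of positions. With 50 bp, a sparse position had no other listed position within 50 bp, which leaves out CpGs listed on both strands. Runs (6617) numbered 11140 at 2000 bp, 2382 at 20000 bp and 3781 with at least 20 positions.

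Settings chosen after seeing the data were leaving out the last 3 Mb of chromosomes (50.98% unmethylated, 37.37% methylated, a difference of 0.1186, and 79.8% of dense positions unmethylated) and weighting nearby positions by density (0.1581). Leaving out CHYB6_CF_7_S18, the library with most empty cells, moved none of these 4 values by more than 1 SD of the 7 libraries; the other results were not recomputed without it. All positions were on autosomes of both tables, so these limits left the values as they were. No paired analysis was possible because the library codes match no label that pairs a first with a repeat capture, and the differences between position sets were taken within each library.

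Read depth is unknown, and all values rest on 7 libraries. The labels give 6 dogs for the samples of the repeat table, but no library code matches a label.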
